A study of Mus musculus with 2 samples.

Results

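The genes for the proteins of the cytosolic ribosome were followed across the cell classes of dissociated mouse skin. Members were all rows of the count matrix whose symbol begins with Rps or Rpl and a digit, together with Rplp0, Rplp1, Rplp2 and Rpsa, leaving out 5 pseudogene rows and the 10 rows of the Rps6k kinases. This gave 86 of 32285 genes, 34 with Rps and 52 with Rpl symbols, and 85 of them held at least 50 unique molecular identifiers (UMIs, counted molecules) in the classed barcodes. The remaining one, Rpl10l, held 1 UMI, so nothing further is said of it. Of the 86, 77 are proteins of the mature subunits, which are called subunit members here, and 9 are paralogs of these or genes with a like symbol (Rpl3l, Rpl7l1, Rpl10l, Rpl22l1, Rpl36al, Rpl39l, Rps19bp1, Rps27l and Rps27rt).

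The skin came from C57BL/6 mice aged 8 weeks, either control animals or animals in which an anti-Ly6G antibody (clone 1A8) had been given on 2 consecutive days to deplete neutrophils. Cells released with Liberase and a DNase were tagged with hashtag antibodies by condition and pooled into 1 RNA library, which gave 8367 barcodes and 83725065 UMIs. Nothing in the count matrix tells a control from a depleted barcode, so the conditions are not compared and every value describes the pool. With 1 library there is no replicate and no test, and the intervals given are 95% intervals for counting error only.

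A ribosome is built from a small subunit, which reads the mRNA, and a large subunit, which joins the amino acids, and each subunit holds 1 copy of most of its proteins. The genes for these proteins are highly expressed in nearly all cells and are known to be controlled together, at transcription and, through a pyrimidine tract at the very start of their mRNAs, at translation. A few subunit proteins have paralogs that replace them in certain tissues, of which Rpl3l in striated muscle is the best known.

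The start sites of some members are shown beside the levels reported below. A link between these sequences and the levels was not tested. Of the 86 members, 66 had an entry in the RefSeq promoter table (GRCm38.p6, the mm10 assembly), with 81 starts in all. Each line gives 45 bases before the start and 15 from the start on, 5′ to 3′ on the transcribed strand, and capitals mark the pyrimidine word CTTTCC, the word CCGGAAG bound by ETS family factors, or the TATA box word TATAA, each on either strand. The first 4 are subunit members that stood out in a class, and the last 3 are paralogs.
Rpl13a (chr7:45128731-45128790, minus strand): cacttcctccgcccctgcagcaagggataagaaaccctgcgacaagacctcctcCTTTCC
Rps27 (chr3:90213634-90213693, minus strand): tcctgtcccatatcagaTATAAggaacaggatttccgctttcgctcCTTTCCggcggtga
Rps9 (chr7:3703996-3704055, plus strand): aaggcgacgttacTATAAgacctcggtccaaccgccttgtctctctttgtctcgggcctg
Rpl27 (chr11:101442200-101442259, plus strand): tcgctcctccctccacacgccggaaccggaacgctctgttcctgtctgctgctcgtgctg
Rpl39l (chr16:10170183-10170242, plus strand): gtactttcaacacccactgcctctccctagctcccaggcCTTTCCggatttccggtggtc
Rpl22l1 (chr3:28805463-28805522, plus strand): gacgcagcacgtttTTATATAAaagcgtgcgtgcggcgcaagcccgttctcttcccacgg
Rpl3l (chr17:24727781-24727840, plus strand): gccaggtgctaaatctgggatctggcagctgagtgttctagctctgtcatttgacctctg

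The pyrimidine word CTTTCC lay on the transcribed strand within 50 bases of the start in 24 of the 81 member windows (29.6%), against 4.69% of all 32851 windows of the same length. On the other strand it was found in 2.47% of the member windows and 4.47% of all windows. CCGGAAG was present on the transcribed strand in 12.3% of member windows and 2.75% of all, and TATAA in 12.3% and 6.81%. On the other strand CCGGAAG stood in 6.17% and 2.72%, and TATAA in 3.70% and 4.53%. Rpl39l and Rps27 hold CTTTCC close to the start, and the first start of Rpl3l holds none of the 3 words in the 60 bases printed. Starts of 1 gene can overlap, and the words were searched as letters only.

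Members took up 20.3% of all UMIs of the 7822 barcodes that passed the filters. The filters asked for at least 200 genes and at most 20% mitochondrially encoded UMIs, and 305 called doublets were left out. The share of member UMIs in single barcodes ran from 0.239% to 52.1%, with a median of 19.1% and quartiles of 14.2% and 24.0%. Marker genes placed 5893 barcodes in 13 classes, each called X-like after its markers, and the 1929 unclassed barcodes had a median share of 16.3%. Of the 10 leading genes by fold of each class, between 1 and 5 were the class's own markers in 10 of the 13 classes and 0 in the fibroblast-, suprabasal keratinocyte- and skeletal muscle-like classes, whose leading genes include Tnmd, Dsc1 with Flg2, and Myh1. Since the markers also chose the barcodes, their presence is no separate check. Lyve1, a lymphatic marker, is among the leading genes of the macrophage-like class and Cd207, a Langerhans cell marker, among those of the dendritic-like class.

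Over all depths, keratinocytes had the highest shares. In suprabasal keratinocyte-like barcodes, the differentiating layers of the epidermis, the median share was 28.8% (276 barcodes, quartiles 23.8% and 32.7%), and in basal keratinocyte-like barcodes it was 26.6% (829 barcodes). Hair follicle-like barcodes followed with 23.0% (16 barcodes), dendritic-like with 20.9% (105), natural killer (NK) or innate lymphoid-like with 20.7% (79) and fibroblast-like with 20.1% (3477). Monocyte-like barcodes had 17.5% (262), T cell-like 13.0% (125), macrophage-like 12.4% (558), skeletal muscle-like 11.2% (96), pericyte or smooth muscle-like 10.5% (20) and mast-like 9.54% (22). Neutrophil-like barcodes were lowest with 3.60% (28 barcodes, from 1.74% to 11.7%). The places of hair follicle- and T cell-like barcodes depend on how they were drawn. With clusters in place of the gate, the hair follicle-like median was 19.9% (187 barcodes). That is below the dendritic-, NK or innate lymphoid- and fibroblast-like medians given above. The summed hair follicle-like share was 25.15% with the gate and 22.6% with clusters. The summed T cell-like share was 14.5% with the gate and 7.03% with clusters.

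**Figure D1:**
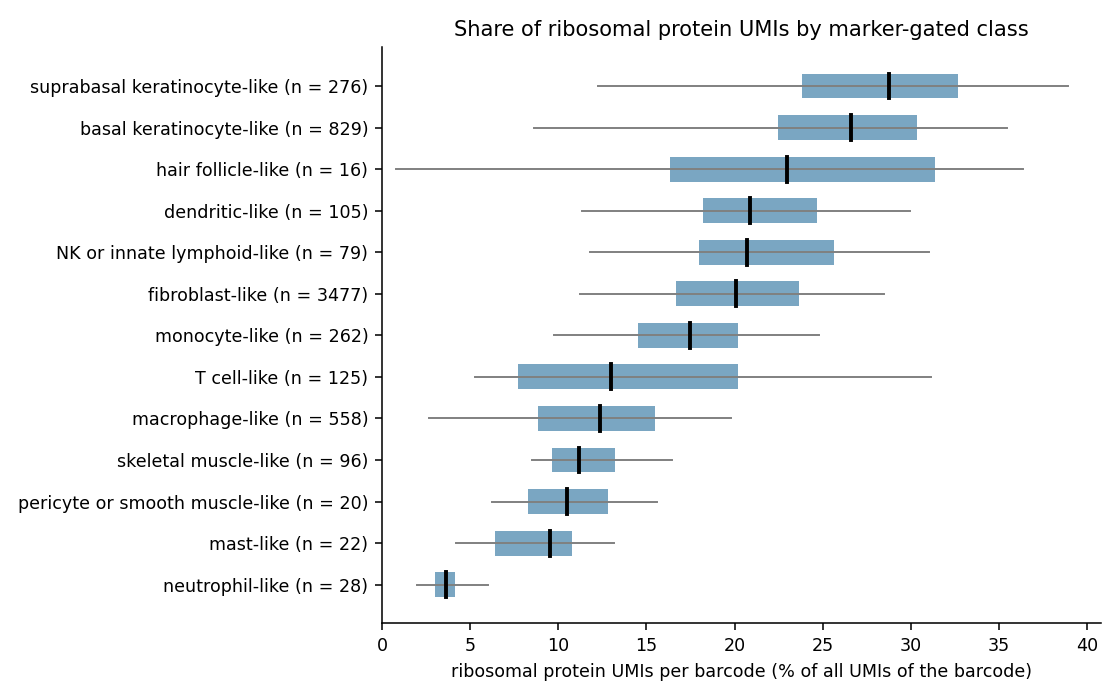
Share of ribosomal protein UMIs in each barcode, in percent of its UMIs, by class. The black line is the median, the bar spans the quartiles and the thin line the 5th to 95th percentile of barcodes; the suprabasal keratinocyte-like median is 28.8% and the neutrophil-like median is 3.60%.

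Neighbours in this order overlapped widely. The quartiles of dendritic-like (18.2% to 24.7%), NK or innate lymphoid-like (18.0% to 25.6%) and fibroblast-like barcodes (16.7% to 23.7%) covered nearly the same range, and so did those of T cell-like (7.71% to 20.2%) and macrophage-like barcodes (8.84% to 15.5%). The spread between barcodes was far above counting error: in fibroblast-like barcodes the SD was 5.29 percentage points, and 0.443 was expected from counting alone. The neutrophil-like quartiles, 2.99% and 4.13%, lay below the lower quartile of each of the other 12 classes.

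Depth differed between the classes, from a median of 1686 UMIs in mast-like to 12448 in suprabasal keratinocyte-like barcodes. Among barcodes with 2000 to 5000 UMIs, the median share was 3.23% in neutrophil-like (19 barcodes), 8.98% in macrophage-like (133), 12.2% in skeletal muscle-like (34), 18.1% in fibroblast-like (314), 21.8% in NK or innate lymphoid-like (38) and 30.1% in suprabasal keratinocyte-like barcodes (30). At this depth the macrophage-like median was below the skeletal muscle-like one, the reverse of their order over all depths. The NK or innate lymphoid-like median was above the fibroblast-like one at this depth and over all depths. Basal keratinocyte-like barcodes with 2000 to 5000 UMIs had 16.65% (83 barcodes, quartiles 2.34% and 28.75%), below the fibroblast-like median. With 8000 to 12000 UMIs they had 28.0% (358), and fibroblast-like barcodes had 20.6% (923). Within macrophage-like barcodes the median was higher at greater depth, with 8.23% in the third with fewest UMIs and 12.5% and 14.9% in the others. Within T cell-like barcodes the order was the opposite, with 18.8%, 11.3% and 9.04%. Skeletal muscle-like barcodes stayed near one level, at 11.1%, 11.4% and 10.6%.

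The choice of denominator mattered most for muscle. Summed over the class, members made up 11.5% of skeletal muscle-like UMIs and 20.4% of fibroblast-like UMIs. When the mitochondrially encoded genes and the 100 leading other genes of each class were taken out of the denominator, the values were 25.6% and 29.0%. Under the same denominator basal keratinocyte-like barcodes came to 36.4%, macrophage-like to 21.98% and neutrophil-like to 8.56%, so the muscle-like value lay above the macrophage-like one and the neutrophil-like value was the lowest of the 5. Skeletal muscle-like barcodes also differed in other measures: their median share of mitochondrially encoded UMIs was 0.0176% and their median share of Malat1, a nuclear RNA, was 0%, against 1.54% and 0.486% over all barcodes. The part these play in the low share was not tested.

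Members were next compared 1 by 1. For each gene, the level in a class, in UMIs scaled to 1 common total per class (CPM), was divided by the level in all other classed barcodes together. Fibroblast-like barcodes held 40977398 of the 63646588 classed UMIs, so in the other classes this ratio was largely set against fibroblast-like barcodes. A gene counts as above when this ratio was over 1.5 and as below when it was under the inverse of 1.5, and each count of members stands beside the same share of all 14703 genes with at least 50 UMIs. Read counts were not divided by transcript length, so CPM compares a gene between classes and not genes with each other.

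In suprabasal keratinocyte-like barcodes 80 of 85 members were above 1-fold (94.1%, against 39.6% of all genes), but most ratios were moderate. Only 15 of 85 were above 1.5-fold, a share of 17.6% beside 18.6% of all genes, and 2 of 85 were below (44.4% of all genes). With clusters in place of the gate, 24 of 85 were above 1.5-fold, or 28.2% beside 18.2% of all genes. Above 2-fold there were 0 of 85, beside 10.9% of all genes. Rplp0, the stalk protein that anchors the acidic proteins at the factor-binding site of the large subunit, had 6741 CPM in suprabasal keratinocyte-like barcodes and was 1.96-fold above the other barcodes. Rps19, a small-subunit protein whose loss causes Diamond-Blackfan anaemia in humans, had 5712 CPM there and was 1.83-fold above.

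In basal keratinocyte-like barcodes 78 of 85 members were above 1-fold (91.8%, against 48.0% of all genes), 9 of 85 were above 1.5-fold (24.5% of all genes) and 2 of 85 were below (36.3% of all genes). The 9 were Rps19 (1.77), Rps16 (1.73), Rpl12 (1.63), Rpl13a (1.59), Rpl5 (1.58), Rps7 (1.57), Rpl3 (1.55), Rplp0 (1.54) and Rpl7 (1.502). Rpl5 binds the 5S ribosomal RNA, and Rps7 and Rps19 are needed to mature the small subunit. In both keratinocyte classes the 2 members below were the paralogs Rpl39l and Rpl3l.

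In macrophage-like barcodes 52 of 85 members were below 1.5-fold (61.2%, beside 38.4% of all genes), and 0 of 85 were above (22.3% of all genes). Below 2-fold there were 10 of 85, beside 30.2% of all genes. Rplp0 had 1531 CPM in this class and was at 0.404-fold, and Rpl22l1 was at 0.350-fold. The count rests on how the class was drawn: with clusters in place of the marker gate, which put the 1298 barcodes of clusters 2, 9 and 11 in the class, 24 of 85 members were below 1.5-fold. That is 28.2%, less than the 42.7% of all genes below in that comparison, so the excess over the background was seen with the gate only.

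In neutrophil-like barcodes 82 of 85 members were below 1.5-fold (96.5%, beside 67.3% of all genes), and 78 of 85 were below 2-fold (63.3% of all genes). Many genes had no UMI in these 28 barcodes, so a median over all genes is not given here. The 1 member of 85 above 1.5-fold (19% of all genes) was Rpl3l, on 2 UMIs from 1 barcode. Rps18, a small-subunit protein at the head, had 24 UMIs or 295 CPM in this class against 3238 CPM in fibroblast-like barcodes, a ratio of 0.0894 to the other classed barcodes. Of the 28 barcodes, 3 also held 3 or more macrophage markers. Without those 3, the summed share was 3.26% in place of 4.89% (4.75 to 5.04) and 82 members were again below 1.5-fold.

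In skeletal muscle-like barcodes 64 of 85 members were below 1.5-fold, and 3 of 85 were above (13.7% of all genes). The 64 are 75.3% of the members, and 74.3% of all genes were below in the same comparison. Below 2-fold there were 32 of 85 members, beside 69.6% of all genes. The median log2 ratio was -0.89 for members, with no UMIs added, and -1.48 for all genes, with 0.5 UMIs added to each count. The share below is thus near the background and is no result about the members.

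Mast-like and pericyte or smooth muscle-like barcodes, 22 and 20 in number, were also low. In mast-like barcodes 82 of 85 members were below 1.5-fold (63.7% of all genes) and 78 of 85 below 2-fold (60.6% of all genes), and in pericyte or smooth muscle-like barcodes 71 of 85 were below 1.5-fold (54.7% of all genes).

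Fewer members passed the limit in the fibroblast-, monocyte-, dendritic- and NK or innate lymphoid-like classes. In fibroblast-like barcodes 2 of 85 members were above (25.3% of all genes) and 2 of 85 below (34.5%). All 4 were paralogs: Rpl39l and Rpl22l1 above, Rpl3l and Rps27l below. Of these, Rpl39l passed the limit of 50 UMIs through this class and Rpl3l through skeletal muscle-like barcodes, so neither call is a separate result. Monocyte-like barcodes had 1 of 85 above (19.6% of all genes) and 7 of 85 below (45.2%). Dendritic-like barcodes had 2 of 85 above (18.6% of all genes), among them Rps27l at 1.73-fold, and 3 of 85 below (48.5%). NK or innate lymphoid-like barcodes had 1 of 85 above (23.4% of all genes), Rpl27 at 1.78-fold, and 3 of 85 below (49.8%). In T cell-like barcodes 39 of 85 were below, a share of 45.9% near the 42.3% of all genes, and 0 of 85 above (29% of all genes).

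**Figure D2:**
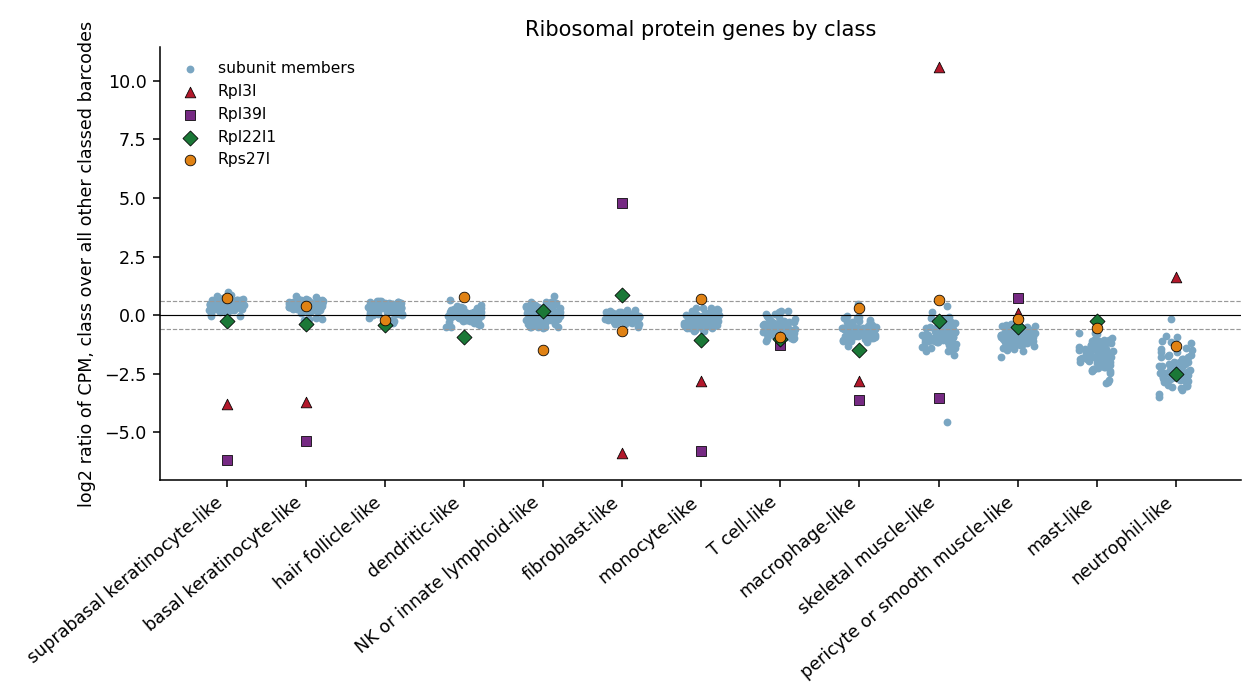
Log2 ratio of CPM in each class over all other classed barcodes, 1 point per member, with classes ordered by median share. Dashed lines mark 1.5-fold; blue points are the 77 subunit members, large symbols are 4 paralogs, and a gene with no UMI in a class is not drawn. Most subunit members move together in most classes. Rpl3 (0.0421-fold) lies far below the others in skeletal muscle-like barcodes, and the spread is wider in neutrophil-like barcodes. Rpl3l in skeletal muscle-like and Rpl39l in fibroblast-like barcodes lie far above the subunit members. Rpl3l in neutrophil-like barcodes rests on 2 UMIs.

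Members differed in how widely they varied. Over the 9 classes of at least 50 barcodes, and among the 78 members with at least 50 UMIs in each of these, suprabasal keratinocyte-like was the highest class for 52 and skeletal muscle-like the lowest for 51. Rps19 had the widest range, 5.77-fold between suprabasal keratinocyte-like (5712 CPM) and skeletal muscle-like barcodes (990 CPM). Rplp0 ranged 4.40-fold, Rps16 3.89-fold, Rps4x, the X-linked copy of a small-subunit protein, 3.83-fold, Rpl39 3.46-fold, Rps28 3.46-fold, Rpl13a 3.45-fold and Rps18 3.45-fold. The narrowest ranges were those of Rpl36al (1.77-fold), Rpl36 (1.78-fold), Rpl24 (1.85-fold), the stalk protein Rplp2 (1.91-fold), Rpl7a (1.96-fold), Rpsa, also known as the laminin receptor, (2.05-fold), Rpl10 (2.06-fold) and Rpl26 (2.13-fold). Rpl24 was the 1 member of the 78 with its highest level, 2310 CPM, in skeletal muscle-like barcodes.

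The profiles of the subunit members over these 9 classes were alike. The Pearson correlation of log2 CPM between a subunit member and the sum of the other members had a median of 0.919, with 48 of 77 above 0.9, given as a description of classes that share 1 library. The lowest was 0.432, for Rps2, a small-subunit protein, which was at 3711 CPM in skeletal muscle-like and 4151 CPM in suprabasal keratinocyte-like barcodes. Outside the members, the genes with the closest profile were Rack1 (r = 0.980), Impdh2 (0.974), Nsa2 (0.957), Pigf (0.914), Gar1 (0.913), Atl2 (0.912), Anxa1 (0.909), Ebna1bp2 (0.906), Bcl7c (0.906) and Ccdc59 (0.906), each over 9 classes. Rack1 is a small-subunit scaffold protein, Impdh2 makes guanine nucleotides, and Nsa2, Gar1 and Ebna1bp2 take part in ribosome assembly.

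The clearest exchange between paralogs was that of Rpl3 and Rpl3l in muscle. Rpl3 (chr15:80077781-80083406) encodes a large-subunit protein near the peptidyl transferase centre, and Rpl3l (chr17:24727826-24736143) encodes its striated muscle form. Rpl3l had 472 UMIs in skeletal muscle-like barcodes and Rpl3 had 43, so Rpl3l made up 91.7% (88.9 to 93.9) of the pair. Rpl3l was found in 85 of the 96 barcodes and Rpl3 in 19. In the other 5797 classed barcodes together Rpl3l had 35 UMIs in 33 barcodes. It was 0.0212% of the pair in fibroblast-like, 0.0259% in basal keratinocyte-like and 0.101% in macrophage-like barcodes. Thinned to 2000 UMIs per barcode, which leaves out 21 muscle-like barcodes with fewer, 80.0% (69.2 to 88.4) of skeletal muscle-like and 0.0585% of fibroblast-like barcodes held a UMI of Rpl3l. Before thinning these percentages were 88.5 for muscle-like barcodes, whose median depth was 4376 UMIs, and 0.431 for fibroblast-like barcodes, with 11429 UMIs.

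Rpl3 itself was at 0.0421-fold in skeletal muscle-like barcodes, with 78.2 CPM against 1723 in fibroblast-like and 2786 in suprabasal keratinocyte-like barcodes. Rpl3 made up 0.0767 times (0.0555 to 0.103) the share of member UMIs it has elsewhere, the lowest ratio of any subunit member in that class. Elongation factor 1A, which brings aminoacyl-tRNA to the ribosome, showed the same kind of exchange. Eef1a1 was at 135 CPM and 0.0265-fold in skeletal muscle-like barcodes, and Eef1a2, its muscle and neuron form, was at 540 CPM with 297 UMIs. Eef1a2 had 15 UMIs in fibroblast-like, 2 in basal and 1 in suprabasal keratinocyte-like barcodes and none in the remaining classes.

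Rpl39l (chr16:10170197-10174911), the paralog of the small large-subunit protein Rpl39 (chrX:37082518-37085222) and best known from male germ cells, was a gene of the fibroblast-like class. Of its 1328 UMIs in classed barcodes, 1302 were in fibroblast-like barcodes, at 31.8 CPM, a 27.7-fold (18.8 to 42.6) higher level than in the rest. It was found in 756 of 3477 fibroblast-like barcodes and in 4 of 829 basal keratinocyte-like and 8 of 558 macrophage-like barcodes. Thinned to 2000 UMIs, 6.61% (5.80 to 7.5) of fibroblast-like barcodes and 0.391% (0.0473 to 1.40) of macrophage-like barcodes held a UMI. Even in fibroblast-like barcodes it was 1.13% (1.07 to 1.20) of the UMIs of the pair. Pericyte or smooth muscle-like barcodes had 4 UMIs in 20 barcodes, or 34.3 CPM, which was not told apart from the fibroblast-like level at this depth.

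Rpl22l1 (chr3:28805508-28807424) and Rpl22, which bind the same site of the large subunit, shifted more gradually. Rpl22l1 was 40.01% (39.7 to 40.3) of the pair in fibroblast-like, 35.2% (32.3 to 38.1) in NK or innate lymphoid-like and 43.7% (40.2 to 47.2) in skeletal muscle-like barcodes. It was 22.7% in basal keratinocyte-like, 23.1% in suprabasal keratinocyte-like, 21.0% in macrophage-like, 20.3% in monocyte-like and 20.4% in dendritic-like barcodes, with 26.4% (23.4 to 29.6) in T cell-like barcodes between these groups. Its level was 915 CPM in fibroblast-like and 284 CPM in macrophage-like barcodes.

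Rps27l, the paralog of the small-subunit protein Rps27 and a known p53 target, was highest as a share of its pair in skeletal muscle-like barcodes (31.7%, 28.5 to 34.9). Among the 9 classes of at least 50 barcodes, macrophage-like (24.6%), monocyte-like (22.6%) and dendritic-like barcodes (20.3%) came next, then suprabasal (18.4%) and basal keratinocyte-like (13.7%) and fibroblast-like barcodes (12.1%). The lymphoid classes were lowest of the 9, T cell-like with 7.24% (5.89 to 8.79) and NK or innate lymphoid-like with 3.84% (2.85 to 5.04). Of the smaller classes, pericyte or smooth muscle-like barcodes had 22.5% (15.95 to 30.3). Rps27rt, a near copy of Rps27 on another chromosome whose reads may be split with it, was between 1.69% and 2.78% of its pair in every class other than the neutrophil-like one, where it was 4.82% on 4 UMIs.

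Rpl36al was 51.1% (49.9 to 52.4) of its pair with Rpl36a in macrophage-like, 50.2% in monocyte-like and 57.0% (53.2 to 60.8) in skeletal muscle-like barcodes, against 31.3% (31.0 to 31.7) in fibroblast-like and 35.6% in basal keratinocyte-like barcodes. Rpl7l1, a nucleolar protein of large-subunit assembly, was 3.36% of its pair with Rpl7 in macrophage-like and 1.58% in basal keratinocyte-like barcodes, while its own CPM differed little, 47.4 and 48.9. Rps19bp1, a nucleolar partner of Rps19, was at 1.52-fold (0.911 to 2.38) in skeletal muscle-like barcodes on 19 UMIs, which was not told apart from the other barcodes at this depth.

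**Figure D3:**
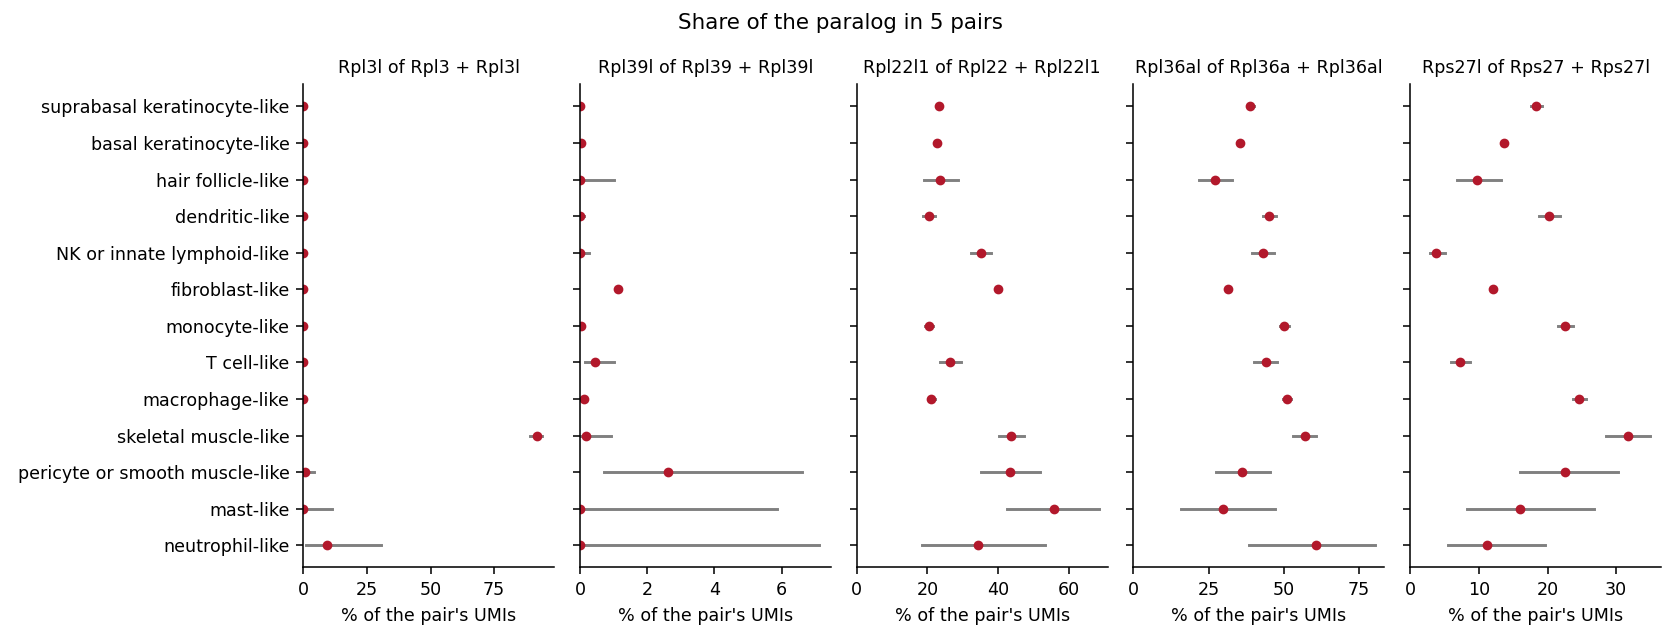
UMIs of a paralog as a percentage of the UMIs of its pair in each class, with 95% Clopper-Pearson intervals; each panel has its own scale. Rpl3l reaches 91.7% in skeletal muscle-like barcodes, and Rpl22l1 stands at 40.01% in fibroblast-like against 21.0% in macrophage-like barcodes.

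The balance between the subunits was nearly fixed. The 31 small-subunit members made up 45.3% of member UMIs in fibroblast-like, 45.4% in basal keratinocyte-like, 45.8% in macrophage-like and 42.4% (42.0 to 42.8) in skeletal muscle-like barcodes, and the 43 large-subunit members 48.5%, 48.5%, 47.7% and 48.8%. The 3 stalk proteins took 4.53% in dendritic-like, 6.09% in suprabasal keratinocyte-like and 6.38% in skeletal muscle-like barcodes. Dividing each member's share of member UMIs by its share in the other classed barcodes sets the total aside. Members are ranked by this ratio only where they had at least 20 UMIs in the class, which leaves Rpl3l and Rpl39l out of most rankings. In fibroblast-like barcodes 76 of 77 subunit members had a ratio between 0.8 and its inverse, in basal keratinocyte-like 71, in macrophage-like 55 and in skeletal muscle-like 52. The counts were lowest in mast-like (42) and neutrophil-like barcodes (30), where members rest on few UMIs.

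Rps29, a small zinc-binding protein of the small subunit, stood out in myeloid barcodes. It made up 3.14% of member UMIs in macrophage-like, 2.20% in monocyte-like and 2.05% in dendritic-like barcodes, against 1.51% in fibroblast-like and 1.15% in basal keratinocyte-like barcodes. The macrophage-like ratio was 2.14 (2.11 to 2.17), so Rps29 was at 4315 CPM in macrophage-like barcodes although 52 of 85 members were below 1.5-fold there. It was found in 540 of 558 barcodes, with a median of 32 UMIs. Among clusters made without the members, Rps29 was 3.33% in cluster 9, led by Folr2 and Lyve1, 2.24% and 2.40% in the Retnla-expressing clusters 2 and 11, and 2.29% in the monocyte-like cluster 15.

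In neutrophil-like barcodes Rps9, a small-subunit protein, made up 5.58% of member UMIs against 1.41% in fibroblast-like barcodes, a ratio of 3.75 (3.27 to 4.28). Its 222 UMIs came from all 28 barcodes, and its level of 2730 CPM was 0.882-fold that of the other classed barcodes, whereas Rps18 was at 0.0894-fold. Rps27a, made as a fusion with ubiquitin, had a ratio of 2.28 (1.94 to 2.67), and at the other end were Rps20 with 0.493 on 39 UMIs and Rps18 with 0.380 (0.244 to 0.566). Without the 3 barcodes with macrophage markers, the ratio was 5.57 for Rps9, 3.11 for Rps27a and 0.257 for Rps18, on 163, 105 and 8 UMIs. Rps9 also took 2.11% of member UMIs in macrophage-like, 2.08% in monocyte-like, 2.02% in dendritic-like and 2.285% in mast-like barcodes. Rps27a made up 3.92% in neutrophil-like, 2.19% in macrophage-like, 2.33% in monocyte-like and 2.13% in dendritic-like barcodes, against 1.68% in fibroblast-like barcodes. Fau, a small-subunit protein made as a fusion with a ubiquitin-like protein and not covered by the member symbols, was at 4010 CPM or 1.29-fold (1.15 to 1.44) in neutrophil-like barcodes, with UMIs in all 28.

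In the lymphoid classes Rpl13a, Rps27 and Rpl27, of both subunits, took larger shares of member UMIs. In T cell-like barcodes Rpl13a had a ratio of 1.61 (1.53 to 1.69), Rps27 1.60 (1.51 to 1.69) and Rpl27 1.59. In NK or innate lymphoid-like barcodes Rpl27 had 1.70 (1.61 to 1.80), Rps27 1.41 and Rpl13a 1.36. Rps27 took 1.43% of member UMIs in T cell-like and 1.26% in NK or innate lymphoid-like barcodes. Its share was larger in neutrophil-like (1.985%, 79 UMIs) and mast-like barcodes (1.62%, 58 UMIs). The intervals of the Rpl27 ratio were 1.32 to 1.55 in skeletal muscle-like, 1.29 to 1.37 in monocyte-like and 1.22 to 1.29 in macrophage-like barcodes. Rpl13a is known for a second role as a translational silencer in interferon-treated myeloid cells, and it was at 0.928 in monocyte-like and 1.06 in macrophage-like barcodes. At the low end, Rps12 had 0.674 in T cell-like barcodes and Rps19 had 0.660 in NK or innate lymphoid-like barcodes.

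With the limit of 20 UMIs, dendritic-like barcodes had Rps27l at 1.74, with Rps2 at 0.706 and Rpl22l1 at 0.524 at the other end. In monocyte-like barcodes the highest ratios under this limit were those of the paralogs Rps27l (1.86) and Rpl36al (1.62), and the lowest those of Rpl5 (0.723) and Rpl22l1 (0.552). Under the same limit basal keratinocyte-like barcodes had Rps19 (1.34) and Rps16 (1.31) at the top and Rpl37a (0.663) and Rpl22l1 (0.579) at the bottom. Likewise, suprabasal keratinocyte-like barcodes had Rplp0 (1.44) and Rps19 (1.34) at the top and Rpl41 (0.714) and Rpl22l1 (0.615) at the bottom. The low Rpl22l1 ratios of these classes are set largely against fibroblast-like barcodes, where its ratio was 1.93, and are not independent of each other. In fibroblast-like barcodes Rps16 (0.739) and Rps27l (0.664) were the lowest with that many UMIs. Skeletal muscle-like barcodes had Rps2 at 2.39 and Rpl24 at 2.02, and Rps19 at 0.550.

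**Figure D4:**
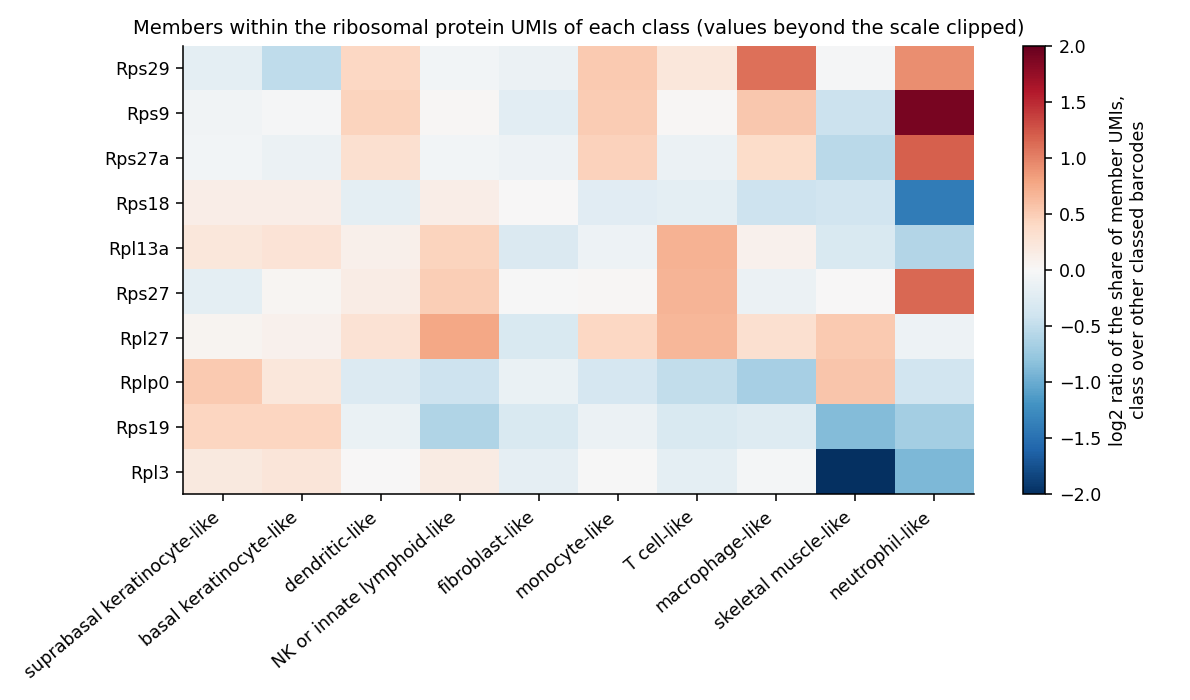
Log2 ratio of the share that 10 members take of all member UMIs in a class over that share in the other classed barcodes, for the 9 classes of at least 50 barcodes and the neutrophil-like class. Colours end at a log2 ratio of 2 in either direction; Rps29 is raised in macrophage-like, Rps9 in neutrophil-like and Rpl3 lowered in skeletal muscle-like barcodes.

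Of the ribosomal proteins with other symbols, Rack1 followed the members, with 1.40-fold in basal keratinocyte-like, 0.720-fold in macrophage-like and 0.248-fold in neutrophil-like barcodes. Fau did not follow them: it was highest in dendritic-like (5706 CPM, 1.86-fold) and monocyte-like barcodes (5016 CPM, 1.65-fold) and at 0.691-fold in fibroblast-like barcodes.

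The ribosome of the mitochondrion has its own protein genes, which the nucleus encodes. Of 78 mitochondrial ribosomal protein genes, 62 were above and 2 below 1.5-fold in skeletal muscle-like barcodes, with a median log2 ratio of 1.32. Of all genes, 13.7% were above and 74.3% below there. Mrpl42 was at 1115 CPM and 15.3-fold and Mrps36 at 449 CPM and 9.62-fold, while Mrps27 was lowest on 1 UMI. The 13 mRNAs that mitochondria encode were all below 1.5-fold in skeletal muscle-like barcodes, beside 74.3% of all genes. They had 2832 CPM in sum there against 26580 CPM in macrophage-like barcodes. In neutrophil-like barcodes 68 of the 78 mitochondrial ribosomal protein genes were below, or 87.2% beside 67.3% of all genes, with Mrpl33 at 2.83-fold as an exception. In suprabasal keratinocyte-like barcodes 15 of 78 were above, or 19.2%, which is near the 18.6% of all genes, and 2 were below (44.4% of all genes).

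The counts for genes that build and serve the ribosome are read here against the background of each comparison. Of 35 ribosome assembly genes, 11 were above (31.4%, beside 18.6% of all genes) and 1 below in suprabasal keratinocyte-like barcodes, where Nhp2, a protein of the H/ACA particles that modify ribosomal RNA, was at 3.38-fold and Tcof1, a nucleolar protein, at 0.510-fold. In neutrophil-like barcodes 25 of the 35 were below and 2 above, and in skeletal muscle-like barcodes likewise 25 and 2, where 67.3% and 74.3% of all genes were below. These 2 counts are thus near the background of their comparisons. Of 36 initiation factors, 8 were above in suprabasal keratinocyte-like barcodes, a share of 22.2% near the 18.6% of all genes, led by Eif6 (2.99-fold), which keeps the large subunit from joining early, and 3 below, led by Pabpc4 (0.288-fold). In neutrophil-like barcodes 24 were below, which is again near the background, and 2 above, Eif5 (2.16-fold) and Eif1 (1.61-fold), both of start codon selection. In skeletal muscle-like barcodes 10 were above (27.8%, beside 13.7% of all genes) and 12 below (33.3%, beside 74.3%), and the poly(A)-binding proteins diverged, with Pabpc4 at 5.50-fold and Pabpc1 at 0.0766-fold.

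Of 10 elongation factor genes, 7 were below in macrophage-like barcodes (38.4% of all genes), with the lowest detected ratio for Eef1b2 (0.437-fold), and 9 in neutrophil-like barcodes (67.3% of all genes). Of 21 genes of RNA polymerase I and its factors, 7 were above (33.3%, beside 18.6% of all genes) and 0 below in suprabasal keratinocyte-like barcodes. In neutrophil-like barcodes 12 of the 21 were below, or 57.1%, which is under the 67.3% of all genes, and Max was at 3.02-fold on 11 UMIs. Of 12 initiation repressors and regulators of pyrimidine-tract mRNAs, 4 were above in suprabasal keratinocyte-like barcodes (18.6% of all genes), with Sesn2 at 3.96-fold and Sesn3 at 0.209-fold, and 3 in neutrophil-like barcodes (19% of all genes), with Sesn2 at 11.8-fold on 10 UMIs. Of 12 S6 kinase and mTOR complex genes, 1 was above in suprabasal keratinocyte-like and 3 in neutrophil-like barcodes (18.6% and 19% of all genes), with Rps6ka2 at 17.7-fold on 11 UMIs. Of 15 immediate early genes, often induced when tissue is dissociated, 10 were below in neutrophil-like barcodes, or 66.7%, which is near the 67.3% of all genes. All 15 were below in skeletal muscle-like barcodes, beside 74.3% of all genes.

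Cycling went with different shares in 2 classes. Among basal keratinocyte-like barcodes, those with 2 or more of 8 cycling markers had a median share of 21.2% (73 barcodes, quartiles 17.3% and 24.3%), and those with none had 26.7% (589 barcodes, quartiles 22.9% and 30.4%). Within the same range of depth, 12263 to 19323 UMIs, the medians were 23.0% (37) and 27.1% (131). Among macrophage-like barcodes the order was the reverse, 14.9% (70 barcodes) with cycling markers and 11.7% (417 barcodes) without, and 15.1% (34) and 13.6% (135) within 1 range of depth. The quartiles overlapped in both classes, and no other class had 50 barcodes of each kind.

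Clusters made without the members gave the variation inside classes. Apart from cluster 22, fibroblast-like clusters ran from a median share of 23.4% in cluster 0, led by Cxcl13 and Gpx3, and 23.1% in cluster 4, led by Ptx3 and Cxcl10, to 15% in cluster 8, led by Crabp1, and 14.3% in cluster 12, led by Cyp2f2. Malat1 was 0.0380% and 0.0425% of UMIs at the median in clusters 0 and 4, and 4.22% in cluster 8. Rpl39l was highest in clusters 12 (72.2 CPM) and 8 (66.3 CPM) and lowest in cluster 10 (19.8 CPM), apart from cluster 22, where it had no UMI. Rpl22l1 was 38.3% to 41.5% of its pair in clusters 0, 1, 4, 5, 6 and 10, 32.4% in cluster 12 and 27.0% in cluster 8. Of the macrophage-like clusters, cluster 9 had a median share of 11.9% (389 barcodes), cluster 2 had 16.6% (584) and cluster 11 had 18.5% (325). The T cell-like cluster 21, led by Trdc, had 7.16% (51 barcodes), and cluster 13, led by Ccl5 and Gzma, had 20.8% (262 barcodes).

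Barcodes with very few member UMIs were found in 10 of the 13 classes. Below a share of 5% there were 494 barcodes, with a median of 2464 UMIs, 6.999% mitochondrially encoded UMIs and 2.97% Malat1, against 9532 UMIs, 1.54% and 0.486% over all. Of them, 189 were in cluster 16, 69 in cluster 20 and 45 in cluster 22, with median shares of 1.91%, 0.731% and 1.69%. Clusters 16 and 20 stayed unnamed, and cluster 20 was led by keratinocyte genes such as Skint6 and Abca12. The classed barcodes among the 494 included 62 of 558 macrophage-like, 37 of 829 basal keratinocyte-like, 14 of 3477 fibroblast-like, 24 of 28 neutrophil-like and 0 of 262 monocyte-like barcodes. The neutrophil-like class had 1.37% Malat1 and 0.123% mitochondrially encoded UMIs at the median, the latter far below the 6.999% of the low-share barcodes as a whole.

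**Figure D5:**
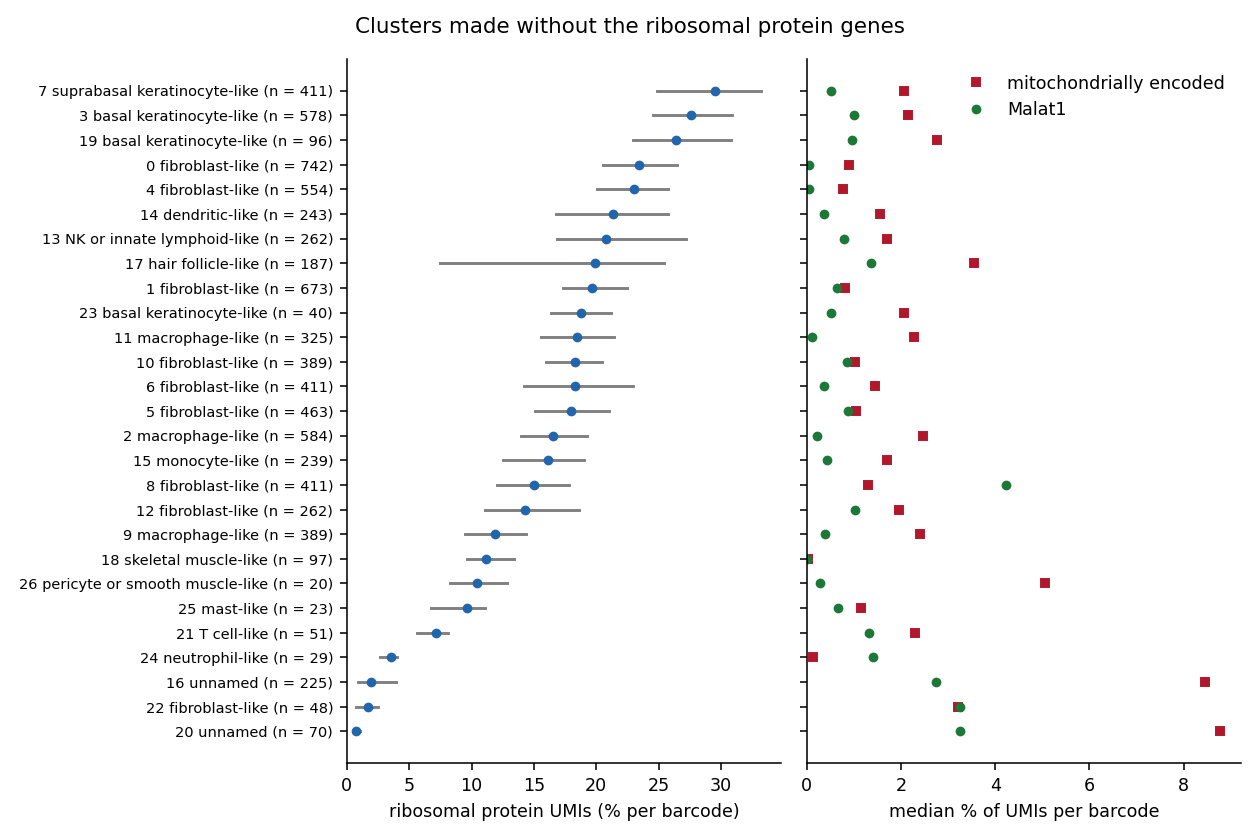
Left, median and quartiles of the share of ribosomal protein UMIs per barcode in 27 clusters made without these genes. Right, the median share of mitochondrially encoded UMIs and of Malat1 in the same clusters; clusters 16, 20 and 22 combine shares under 2% with Malat1 above 2%, and the neutrophil-like cluster 24 has few mitochondrially encoded UMIs.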

How the data were processed

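Skin cells of 1 pooled RNA library were analysed; the hashtag library was not used here. The deposited values are raw UMI counts, whole numbers for each gene in each barcode. The authors used Cell Ranger and mm10 per the submitters' processing notes; the version, the annotation and cell calling are not given in the sources used here. Counting gene families with pseudogenes can lose or split reads, and how such reads were treated is not given either. Barcodes held 500 to 58199 UMIs. Doublets were called with scrublet in Scanpy 1.11.5 (expected rate 6%, 305 or 3.75% called).

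A barcode took the class whose 6 markers scored highest, with at least 3 markers detected and a score 1.5 times the next. Scores were the mean over markers of counts per 10000, scaled to the 90th percentile of positive barcodes and capped. This scoring, and keeping the Langerhans and sebocyte lists out of it, were chosen after the data were seen. Clusters used leidenalg 0.10.2 at resolution 1 with 2000 variable genes, 30 components and 15 neighbours, without members. Intervals are exact Poisson, Clopper-Pearson and exact conditional. Shares among members were ranked with at least 20 UMIs in the class. The fold calculation was tested on simulated data. Python 3.11.15, NumPy 2.4.6, SciPy 1.17.1, pandas 2.3.3 and matplotlib 3.10.9 were used.

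Named were the 8 members with the widest and the 8 with the narrowest range over classes of 50 or more barcodes, all paralog pairs, the 2 highest and 2 lowest members of each such class within member UMIs, Fau and Rack1, the 10 genes of at least 500 UMIs with the most similar profile, and the ends of each related list. Neutrophil-like values, Eef1a1 with Eef1a2, and further genes were singled out after their values were seen. Some genes that this rule names are not reported here. Members and lists were chosen with earlier results of these data known. Alternatives are given in the closing section.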

Additional observations from a re-analysis of the deposited data

How the results depend on the processing

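Single-member ratios that were called, past 1.5-fold either way, kept their direction under all alternatives tried. For this, 42 values were recomputed 252 times, 199 of them within the counting interval and 0 with a called value turned round. A change of direction in values that were not called was not counted. Summed shares moved beyond counting error almost everywhere, which such narrow intervals make easy. In percent, for fibroblast-, basal keratinocyte-, macrophage-, neutrophil- and skeletal muscle-like barcodes in this order where 5 values are given, the shares as reported were 20.4, 26.2, 13.7, 4.89 and 11.5. They were 20.04, 26.5, 16.5, 6.25 and 11.7 with clusters in place of the gate, and 28.97, 36.4, 21.98, 8.56 and 25.6 without mitochondrially encoded and leading genes in the denominator. They were 20.4, 26.5, 13.4, 4.06 and 10.97 after 5% free RNA was subtracted and 20.2, 25.9, 12.6, 3.71 and 11.6 thinned to 2000 UMIs. With equal weights the first 4 were 20.1, 25.6, 12.04 and 3.85. With doublets kept, fibroblast-like was 20.3, basal keratinocyte-like 25.9, macrophage-like 13.8 and skeletal muscle-like 12.2. Without mitochondrially encoded UMIs in the denominator the first 3 were 20.6, 26.9 and 14.1, and with subunit members alone 20.2, 26.0 and 13.6, with 11.2 for skeletal muscle-like. Basal keratinocyte- and macrophage-like were 26.3 and 13.8 with at most 10% mitochondrially encoded UMIs, and 26.3 and 13.8 with 4 markers in the gate. An alternative chosen after seeing the data, without the neutrophil-like barcodes with macrophage markers, gave 3.26.

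Counts of members past 1.5-fold changed with clusters, from 15 to 24 above in suprabasal keratinocyte-like and from 52 to 24 below in macrophage-like barcodes. A 2-fold limit left 0, 10 and 32 in suprabasal keratinocyte-, macrophage- and skeletal muscle-like barcodes. The T cell-like share was 14.5% by the gate and 7.03% by clusters, in which 51 barcodes had that name. The hair follicle-like median share was 23.0% by the gate (16 barcodes) and 19.9% by clusters (187 barcodes). The cause was not tested in these cases. With 28 neutrophil-like barcodes, members there rest on few UMIs. No paired analysis was possible because there was 1 library.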
